A study of Mus musculus with 17 samples.

Results

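Creb1, Crem, Atf1, Crtc1, Crtc2, Crtc3, Sik1, Sik2 and Sik3 are 9 genes of the cAMP response pathway, out of 36293 genes in the bulk files. They were taken by symbol from the bulk nuclear RNA-seq tables and by gene row from the sNucDrop-seq (single-nucleus droplet RNA-seq) tables. The genes were chosen by name with their bulk fold changes and FDR values of CUS against control in view, so the bulk values of stressed and control mice describe the genes and test nothing.

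CREB1, CREM and ATF1 are leucine zipper factors that bind the cAMP response element (CRE) and are activated when protein kinase A or calcium-dependent kinases phosphorylate them. CREB-regulated transcription coactivators (CRTC) join them on DNA, and they stay outside the nucleus while salt-inducible kinases (SIK) keep them phosphorylated. The pathway turns on early response and neuropeptide genes in active neurons, and Crem and Sik1 are themselves textbook CREB targets that feed back on it.

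All mice were C57BL/6 males (C57BL/6J in the study's methods). Chronic unpredictable stress (CUS) started at 9 to 10 weeks of age and consisted of 3 different stressors a day for 12 days. Control mice lived in another room and were handled gently each day, so the room cannot be told apart from the stress. Bulk nuclear RNA came from the medial prefrontal cortex (mPFC) of 4 control and 5 CUS mice at postnatal day 90, and single nuclei came from the neocortex of 4 control and 4 CUS mice at postnatal day 80. By the methods, each library is 1 mouse, and the bulk mice were taken a day after the last of a series of behavioural tests, whereas the nuclei mice were taken a day after the last stressor. The nuclei mice came in 2 batches of 2 control and 2 CUS mice each, but the labels do not say which mouse was in which, so no batch term could be fitted and no within-batch value can be given.

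Bulk depth was 26188825 to 30525015 reads on genes per mouse, with 174 (Sik1) to 7610 (Sik3) reads per mouse on the 9 genes. Of 40000 deposited barcodes, 26730 nuclei were kept, with 4680945 to 12477099 UMIs (unique molecule counts) per mouse, and any pair of libraries shared 0 to 2 kept barcodes. The CUS library with replicate number 2 stood apart in its effect on calls, since leaving it out raised the number of called genes in all nuclei summed from 1 to 850. By chi-square per degree of freedom between libraries, CUS mouse 1 lay about as far from CUS mice 3 and 4 (12.4 and 13.7) as CUS mouse 2 did (11.2 and 14.9). Tests of CUS against control in nuclei are given with and without CUS mouse 2, in part chosen after seeing the data. In bulk tissue, fewer nuclei of a type and less RNA per nucleus cannot be told apart.

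The letters TGACGTCA form the full CRE, and TGACG is its half-site. Both strands of RefSeq promoter windows (GRCm38.p6, 250 bases before to 50 after a gene's start) were searched for TGACGTCA, TGACGT and TGACG, where a longer motif also counts as each shorter one it holds. TGACGTCA was present in 1.88% of 27025 promoters, TGACGT in 7.64% and TGACG in 21.0%. Windows were found for 6 of the 9 genes and not for Crem, Crtc2 and Sik1. None of the 6 held TGACGTCA, Sik2 and Sik3 held TGACGT, Atf1 held a single TGACG, and the windows of Creb1, Crtc1 and Crtc3 held none of these letters. A match describes letters and not binding. The stretches of the 3 windows with matches are shown to let the sites be compared, 5′ to 3′ on the gene's strand, with the matches in capitals.
Sik2: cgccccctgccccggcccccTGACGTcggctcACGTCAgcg
Sik3: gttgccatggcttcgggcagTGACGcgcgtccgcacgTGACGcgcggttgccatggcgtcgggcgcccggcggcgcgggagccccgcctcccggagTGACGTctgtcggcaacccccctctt
Atf1: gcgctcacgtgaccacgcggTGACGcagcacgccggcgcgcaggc
The Sik2 stretch is chr9:51009054-51009094 on the minus strand, the Sik3 stretch is chr9:46012667-46012788 on the plus strand and the Atf1 stretch is chr15:100227749-100227793 on the plus strand. In Sik2 one match covers the annotated start and the other, on the opposite strand, follows just after it, whereas the Sik3 and Atf1 matches lie upstream of it.

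In bulk mPFC, 3 of the 9 genes passed an FDR of 0.05, and all 3 were lower after CUS: the factor Crem and the kinases Sik1 and Sik2. Of 18394 genes tested, 3.29% passed in either direction, 2.13% lower and 1.16% higher. Calls were 392 lower and 214 higher, and 619 lower and 203 higher without TMM scaling. The median log2 fold change was -0.15 over the 9 genes and 0.01 over all genes tested, and 7 of the 9 values were negative. Nothing is read from these counts, since the contrast was known when the genes were chosen.

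Crem (chromosome 18, 3266048 to 3337748, mm10, minus strand) encodes activators and, from an internal promoter, the short ICER repressors, which gene counts cannot separate. Its level was 27.8, 30.3, 28.3 and 29.8 CPM (counts per 1000000 reads, TMM scaled) in the control mice and 22.8, 23.8, 23.2, 23.2 and 22.5 CPM in the CUS mice. Every CUS mouse was below every control mouse, as for 4.70% of all genes tested, while 8.76% did not overlap in either direction. The means were 29.1 ± 1.21 (SD, n = 4) and 23.1 ± 0.508 CPM (SD, n = 5), a log2 fold change of -0.33 ± 0.05 (SE) with an FDR of 0.00954 by edgeR's quasi-likelihood test. The lincRNA Gm6225 overlaps Crem by 1333 bases on the opposite strand and had 139 to 230 reads per mouse and a log2 fold change of -0.07.

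Creb1 (chromosome 1, 64532645 to 64604548, plus strand), the founding factor of the family, measured 87.1, 87.7, 82.5 and 92.1 CPM in control mice and 79.1, 86.3, 85.9, 77.3 and 78.8 CPM in CUS mice. The groups overlapped, and the log2 fold change was -0.10 ± 0.06 (SE), or -0.13 to -0.06 with 1 mouse left out. Atf1 (chromosome 15, 100227819 to 100261244, plus strand), its closest relative, measured 25.4, 24.8, 24.9 and 20.6 CPM in control mice against 21.5, 21.4, 22.6, 21.7 and 20.8 CPM. Control mouse 4 lay below all CUS mice, so these groups overlapped too, and the log2 fold change was -0.15 ± 0.07.

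The coactivators showed no call. Crtc1 (chromosome 8, 70382355 to 70439579), the neuronal member, ranged from 53.3 to 83.0 CPM in control mice and from 67.2 to 75.8 CPM in CUS mice. Its control values of 59.6, 67.8, 83.0 and 53.3 CPM spread more widely than the CUS values. The log2 fold change was 0.11 ± 0.10, and it was 0.24 (FDR 0.0740, edgeR) without control mouse 3 and 0.03 without control mouse 4. Crtc2 (chromosome 3, 90254163 to 90264125), best known from liver gluconeogenesis, was at 12.4 to 14.8 and 13.2 to 15.8 CPM with a log2 fold change of 0.10 ± 0.08. Crtc3 (chromosome 7, 80586627 to 80688877) was at 50.2 to 67.6 and 52.9 to 58.3 CPM with a log2 fold change of -0.08 ± 0.08. The CUS range of Crtc3 lay wholly inside its control range, and its value was -0.02 without control mouse 3 and -0.15 without control mouse 4.

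Sik1 (chromosome 17, 31844248 to 31855792, minus strand), the inducible kinase, measured 9.82, 12.1, 12.6 and 12.5 CPM in the control mice and 7.75, 6.86, 7.41, 8.81 and 7.89 CPM in the CUS mice. The highest CUS mouse stayed below the lowest control mouse. With means of 11.8 ± 1.32 and 7.74 ± 0.716 CPM (SD), the log2 fold change was -0.60 ± 0.10 and the FDR 0.00969 by the same edgeR test, the largest change among the 9.

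Sik2 (chromosome 9, 50892801 to 51009073, minus strand), a constitutive kinase, measured 137, 171, 177 and 173 CPM in the control mice and 130, 112, 132, 121 and 116 CPM in the CUS mice. Again the groups did not overlap, although control mouse 1 lay well below the other 3 control mice. Means were 164 ± 18.6 and 122 ± 8.49 CPM (SD), with a log2 fold change of -0.43 ± 0.08 and an FDR of 0.0161 by the same edgeR test. Ppp2r1b, a phosphatase subunit gene, overlaps Sik2 by 1429 bases on the opposite strand and had 491 to 767 reads per mouse and a log2 fold change of 0.08. Over 14 alternatives the log2 fold change of Sik2 ranged from -0.51 to -0.39. The FDR of Sik2 in edgeR rose above the threshold in 4 of them, to 0.0585 without control mouse 2 (log2 fold change -0.41), 0.0526 without CUS mouse 4 (-0.42), 0.0516 without CUS mouse 5 (-0.41) and 0.0577 with the replicate number as a block (-0.40).

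Sik3 (chromosome 9, 46012820 to 46224194, plus strand), the third kinase, measured 204, 257, 284 and 243 CPM in the control mice and 228, 211, 209, 211 and 220 CPM in the CUS mice. Control mouse 1 was below every CUS mouse and the other 3 control mice were above them. The log2 fold change was -0.19 ± 0.08 with an FDR of 0.180 by edgeR. It was -0.28 (FDR 0.0334, edgeR) without control mouse 1 and -0.13 (FDR 0.288, edgeR) without control mouse 3. Control mouse 1 was also the lowest control mouse for Sik1 and Sik2.

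**Figure D1:**
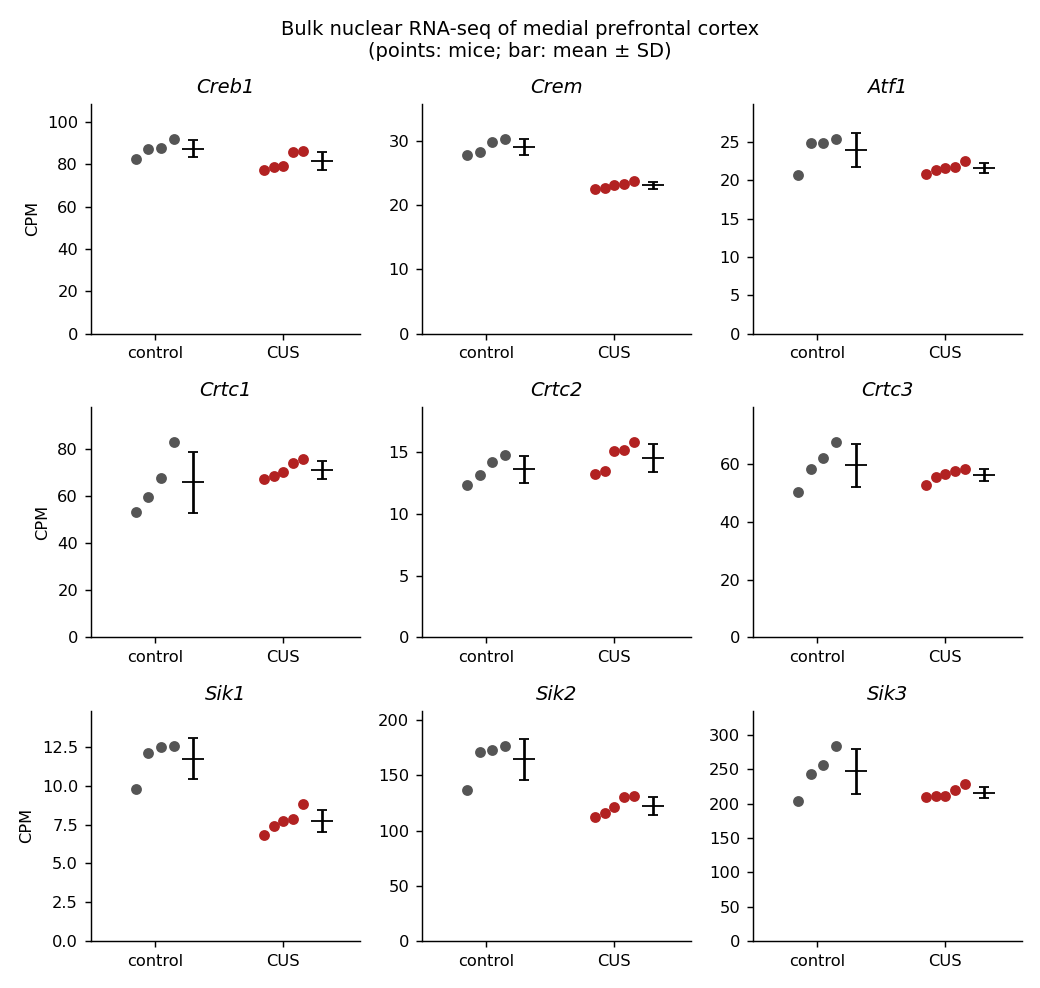
Level of each gene in bulk mPFC nuclear RNA, in CPM from 0 on the vertical axis, for 4 control mice (grey points) and 5 CUS mice (red points), with the mean ± SD beside each group. The groups separate for Crem (lowest control 27.8, highest CUS 23.8), Sik1 (9.82 and 8.81) and Sik2 (137 and 132) and overlap for the other 6 genes.

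Markers of other cell types moved in the same mice. All 6 mature oligodendrocyte markers had negative log2 fold changes (median -0.51, none called), and their summed level was 242 to 590 CPM in control mice and 262 to 331 CPM in CUS mice. Control mouse 1, the lowest control mouse for Sik1, Sik2 and Sik3, was also the lowest control mouse for these markers. The same held for the astrocyte, striatal, inhibitory and Ex_L6 sums. All CUS mice lay above control mouse 1 for the mature oligodendrocyte and striatal sums, and below it for Sik1 and Sik2. For the inhibitory sum, CUS mice 1, 3, 4 and 5 lay below it (918, 966, 909 and 968 against 987 CPM) and CUS mouse 2 above it (1091 CPM). The CUS ranges of the Ex_L6 sum (876 to 1514 against 1083 CPM) and the astrocyte sum (1493 to 1795 against 1607 CPM) spanned its value. All 6 astrocyte markers had negative values, 2 of them called, with sums of 1607 to 1993 and 1493 to 1795 CPM. Of 8 striatal markers, 7 had negative values and none of these was called, with a median of -0.83 over the 8 and the lowest value in Drd2 (-2.09). Pde10a was called higher and makes up most of the striatal sums of 679 to 1167 and 1164 to 1406 CPM. Of 5 OPC markers, 4 had negative values (median -0.15 over the 5), and the remaining marker, Tnr, was called higher at 0.54. The OPC sums of 890 to 1092 CPM in control mice and 1259 to 1408 CPM in CUS mice did not overlap and are mostly Tnr, which rose from a mean of 845 to 1230 CPM. All 5 excitatory markers had positive values (median 0.24, none called, sums 1335 to 1972 and 1732 to 1848 CPM), and all 5 inhibitory markers had negative ones (median -0.14, none called). Sums of the Inh_Pv markers (401 to 448 against 460 to 520 CPM) and of the Inh_Sst markers (900 to 1049 against 1099 to 1176 CPM) did not overlap. The first are mostly Kcnc2 (means of 363 and 414 CPM) and the second mostly Cacna2d3 (733 and 886 CPM). Of these markers Cacna2d3 alone was called, higher. In each list 1 marker had a negative value, Tac1 (-0.90) and Grin3a (-0.11). Among the other lists, new oligodendrocyte markers were negative in 5 of 5 with Bcas1 called lower (-0.46), Ndnf was called lower (-0.49) and Lamp5 higher (0.39) in the Inh_Ndnf list, and Htr3a was called higher (0.73) in the Inh_Vip list. Claustrum markers were negative in 4 of 5 with Nr4a2, which is also a CREB target, called lower, and no endothelial marker or marker of an excitatory layer was called. The 6 microglial markers had sums of 101 to 108 and 98.7 to 115 CPM, with 3 negative values. Their part in the values of Crem and the SIK genes was not tested.

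Per kilobase of gene span, introns included, the order of bulk control levels was Sik2 (1.41 ± 0.160 CPM per kb, SD, n = 4), Crtc2 (1.37 ± 0.110), Creb1 (1.21 ± 0.0546), Sik3 (1.17 ± 0.157), Crtc1 (1.15 ± 0.224), Sik1 (1.02 ± 0.114), Atf1 (0.716 ± 0.0666), Crtc3 (0.583 ± 0.0715) and Crem (0.405 ± 0.0168). Each neighbour overlapped the next across control mice, except that Sik1 lay wholly above Atf1 and Crtc3 wholly above Crem.

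Among 104 further genes of the pathway, 9 were called lower and 3 higher in bulk after CUS, against 3.29% of all genes called. These lists were also written with results of the mice known. By list, CREB target genes had 7 lower and 1 higher of 27, with a median log2 fold change of -0.33. Phosphodiesterases had 1 higher of 13 (median -0.11), calcium and MAP kinase inputs had 1 lower and 1 higher of 17 (median 0.06), and other CREB and ATF factors had 1 lower of 13 (median -0.15). No call fell on the 17 adenylyl cyclase and protein kinase A genes (median 0.00), the 15 SIK activators and substrates (median -0.07) or the 2 acetyltransferases CBP and p300 (median -0.04). In these last lists the largest values were 0.30 ± 0.11 for Adcy7, a cyclase, -0.22 ± 0.09 for Hdac5, a SIK substrate, and -0.06 ± 0.05 for Ep300.

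The matricellular gene Cyr61 had the smallest p of the target list, with 4.49, 5.56, 3.06 and 4.37 CPM in control mice and 1.32, 1.58, 1.04, 1.19 and 1.31 CPM in CUS mice. Its groups were far apart, and the log2 fold change was -1.77 ± 0.18 (FDR 0.00107, edgeR). The orphan nuclear receptor genes Nr4a2 and Nr4a3 fell by 1.76 and 1.19 on the log2 scale, from 8.50 ± 1.96 to 2.53 ± 0.574 CPM and from 67.1 ± 21.6 to 29.5 ± 5.27 CPM (SD). Fos, the AP-1 factor, fell by 1.05 and Dusp1, a MAP kinase phosphatase, by 0.60. Pcsk1, the prohormone convertase, Homer1, a postsynaptic scaffold, and Vgf, a secreted neuropeptide precursor, were named after their values were seen. Pcsk1 fell by 0.49, Homer1 fell by 0.35, and Vgf alone was higher, at 0.59 ± 0.14.

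Outside the targets, the phosphodiesterase gene Pde10a was higher by 0.61 ± 0.11, with 603, 715, 945 and 851 CPM in control mice and 1089 to 1338 CPM in CUS mice, and no overlap. Camk1d, a calcium-calmodulin kinase, was higher by 0.53 ± 0.12, and Camk2d fell by 0.27. Creb5, a factor related to ATF2, fell by 0.51, from 24.7 ± 2.75 to 17.3 ± 2.96 CPM. The largest uncalled values outside the targets were -0.84 ± 0.27 for Pde1c, which was -0.39 without control mouse 4, and -0.92 ± 0.26 for Atf3, an inducible repressor. Cyr61, Nr4a2, Nr4a3, Fos and Dusp1 were called under all 14 alternatives and Pde10a under 13. Creb5 was called under 10, Camk1d under 8, Homer1 under 7, and Pcsk1, Vgf and Camk2d under 6 each, with edgeR or DESeq2 FDR values up to 0.146.

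**Figure D2:**
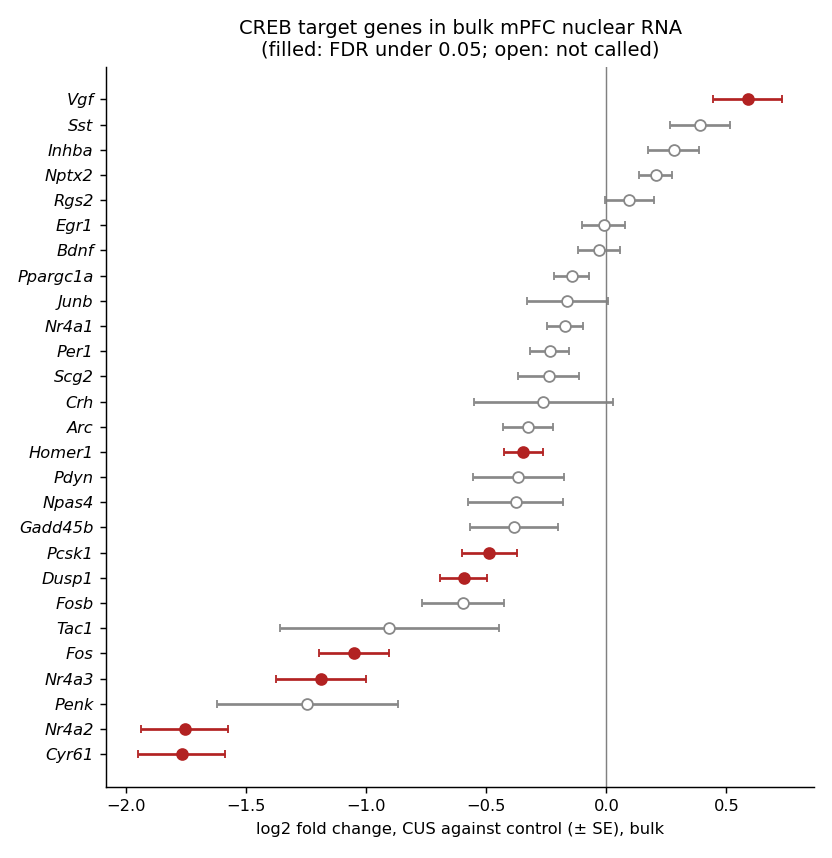
Fitted log2 fold change ± SE of 27 CREB target genes in bulk mPFC, CUS against control, sorted by value on the horizontal axis. Filled points passed an FDR of 0.05 (7 lower and 1 higher), and 22 of the 27 values are negative.

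Promoter windows were found for 7 of the 8 called target genes. TGACG was present in all 7, TGACGT in 6 and TGACGTCA in 2, while among the 21 targets with a window it was 17, 11 and 4. Textbook targets are known in part for these letters, so the share says nothing of stress. Of the 6 called targets with TGACGT, 5 are shown to be compared with the SIK genes, matches in capitals, and were picked after their values were seen. Cyr61, which holds 1 TGACGT, is not shown.
Fos: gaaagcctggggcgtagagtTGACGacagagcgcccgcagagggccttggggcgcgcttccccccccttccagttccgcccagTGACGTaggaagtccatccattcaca
Nr4a3: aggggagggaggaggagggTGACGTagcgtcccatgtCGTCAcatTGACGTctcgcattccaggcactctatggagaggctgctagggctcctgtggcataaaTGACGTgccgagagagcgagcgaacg
Dusp1: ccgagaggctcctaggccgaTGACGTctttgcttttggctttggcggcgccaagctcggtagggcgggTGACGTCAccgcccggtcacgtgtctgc
Pcsk1: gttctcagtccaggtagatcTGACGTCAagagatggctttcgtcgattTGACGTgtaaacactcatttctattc
Homer1: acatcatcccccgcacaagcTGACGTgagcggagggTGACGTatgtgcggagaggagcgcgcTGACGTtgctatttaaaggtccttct
The stretches are chr12:85473741-85473849 (Fos), chr4:48045055-48045183 (Nr4a3), chr13:75089759-75089832 (Pcsk1) and chr13:93303681-93303768 (Homer1) on the plus strand, and chr17:26508588-26508683 (Dusp1) on the minus strand. Only Dusp1 and Pcsk1 hold the full palindrome, which neither SIK window holds.

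In single nuclei of the neocortex, a different set of mice, none of the 9 genes passed an FDR of 0.2 between CUS and control mice. UMIs were summed per mouse over all nuclei, and 5 of the 9 genes (Creb1, Crtc1, Crtc3, Sik2 and Sik3) passed the low-count filter. edgeR called 0 of these 5, against 0.0199% of 5022 genes, and none of the 5 had an unadjusted p below 0.05 (0 of 5, against 8.44% of all genes). Without CUS mouse 2 it again called 0 of the 5 (unadjusted p below 0.05 in 0, against 20.7% of all genes), against 16.6% of 5126 genes. The spread between the batches, which was not fitted, is part of the error in these tests. DESeq2 and edgeR's likelihood ratio test gave 0 calls as well, against 0.438% and 0.358% of the same genes. Crem, Atf1, Crtc2 and Sik1 had 1637, 1677, 588 and 322 UMIs in all, below the filter.

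Sik2 measured 80.1, 89.9, 88.2 and 90.4 CPM in the control mice and 105, 97.1, 91.2 and 91.6 CPM in the CUS mice. Every CUS mouse was above every control mouse, as for 1.75% of genes tested (4.72% in either direction), which is the opposite order to bulk mPFC. The log2 fold change was 0.13 ± 0.09 (FDR 0.626, edgeR), and 0.10 ± 0.09 without CUS mouse 2, so no change was detectable. The make-up of these sums differed between mice, since striatal-like nuclei were 7.36% to 10.0% of nuclei in control mice and 2.44% to 8.82% in CUS mice. In excitatory nuclei, which hold 0 striatal-like nuclei, the means were 79.3 ± 4.55 and 92.2 ± 12.1 CPM (SD, n = 4 each) and the groups overlapped, with a log2 fold change of 0.19 ± 0.10 (FDR 0.520, edgeR) and of 0.21 ± 0.10 (FDR 0.260, edgeR) without CUS mouse 2. Bulk and nuclei differ in region, age, behavioural testing, mice and method, so the difference between them was not tested.

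Sik3 gave a log2 fold change of -0.08 ± 0.11 over all nuclei, with 106 to 150 CPM in control mice and 112 to 133 CPM in CUS mice. For Creb1 it was 0.07 ± 0.10, for Crtc1 0.06 ± 0.09 and for Crtc3 0.09 ± 0.11. All 4 genes had overlapping groups. Without CUS mouse 2 the values were -0.14 for Sik3, 0.05 for Creb1, 0.08 for Crtc1 and 0.01 for Crtc3.

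Crem and Sik1, lower in bulk, were scarce in nuclei. Crem measured 19.8, 24.4, 27.2 and 17.5 CPM in the control mice and 23.5, 22.5, 24.1 and 29.2 CPM in the CUS mice, from 82 to 339 UMIs per mouse. Sik1 measured 1.46, 2.50, 5.77 and 7.48 CPM against 7.85, 6.45, 3.58 and 4.73 CPM, from 9 to 72 UMIs per mouse. Both pairs of groups overlapped. Fitted without the low-count filter, the log2 fold change was 0.11 ± 0.14 for Crem (FDR 0.832, edgeR) and 0.40 ± 0.25 for Sik1 (FDR 0.748, edgeR), so neither was called in either direction. The part of depth in these errors was not tested. Atf1 measured 23.7, 26.6, 27.0 and 28.4 CPM against 21.1, 21.7, 23.6 and 26.1 CPM, and its log2 fold change in that fit was -0.21 ± 0.14. For Crtc2 the means were 8.15 ± 2.08 and 9.43 ± 1.56 CPM and the log2 fold change was 0.17 ± 0.20. Without CUS mouse 2 these values were 0.11 for Crem, 0.29 for Sik1, -0.23 for Atf1 and 0.00 for Crtc2.

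**Figure D3:**
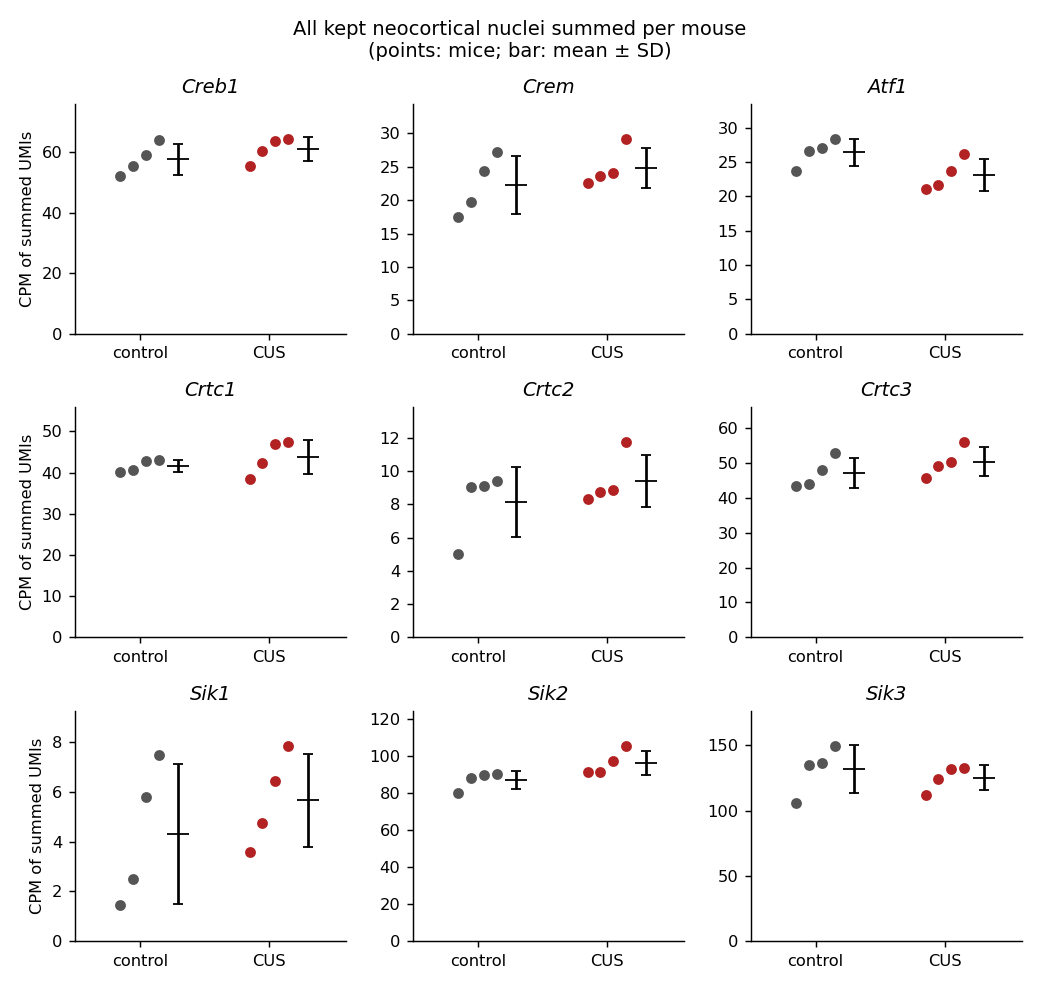
Level of each gene over all kept neocortical nuclei, in CPM of summed UMIs from 0 on the vertical axis, for 4 control mice (grey points) and 4 CUS mice (red points), with the mean ± SD beside each group. Groups separate for Sik2 alone (highest control 90.4, lowest CUS 91.2), with the CUS mice higher.

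**Figure D4:**
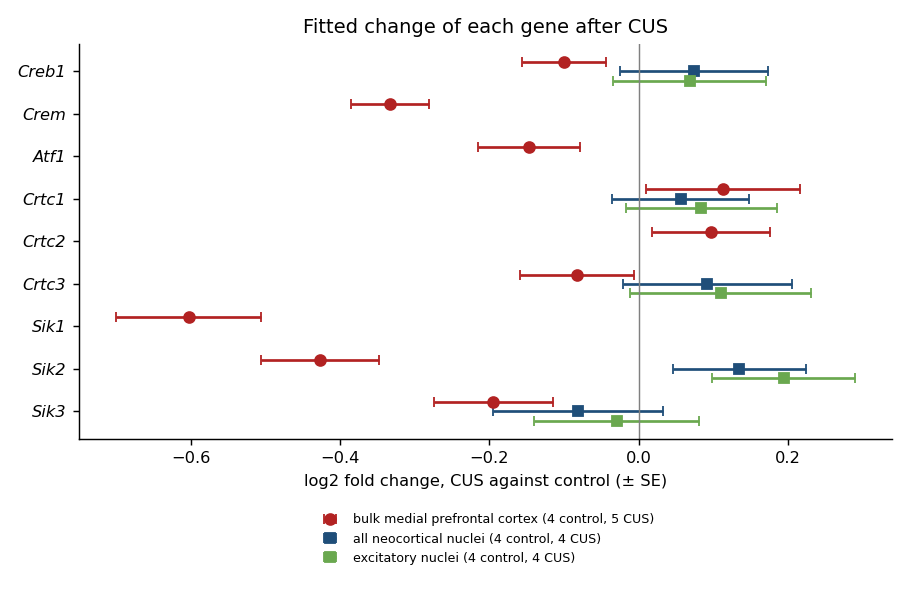
Fitted log2 fold change ± SE of each gene, CUS against control, in bulk mPFC (red), all nuclei (blue) and excitatory nuclei (green), with no nuclei value for the 4 genes below the low-count filter. Sik2 lies at -0.43 in bulk and at 0.13 and 0.19 in nuclei.

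Across 25 nuclei classes of more than 200 nuclei, 96 tests of a gene in a class were possible and edgeR called 0, against 0.102% of all tests in these classes. Unadjusted p-values were below 0.05 in 2 of the 96, and in 6.11% of all tests. DESeq2 and edgeR's likelihood ratio test also called 0, against 0.0628% and 0.316% of all tests. The 2 were Creb1 in Ex_L5/6-like nuclei (0.65 ± 0.22, FDR 0.853, edgeR) and Crtc1 in the cluster led by Slc26a4 (0.59 ± 0.25, FDR 0.530, edgeR). Without CUS mouse 2, edgeR called 0 of 100 tests, against 1.33% of all tests, and 3 had an unadjusted p below 0.05, as did 8.62% of all tests (the same 2 and Sik3 in claustrum-like nuclei, at -0.76 ± 0.37, FDR 0.637). With all mice, Sik3 was testable in 25 classes, with log2 fold changes from -0.61 to 0.37 and 16 negative. Sik2 was testable in 23 classes, with values from -0.46 to 0.63 and 16 positive. Among these, Ex_L2/3-like nuclei gave 0.27 ± 0.17, Ex_L6-like nuclei 0.28 ± 0.17 and mature oligodendrocyte-like nuclei -0.43 ± 0.36. Creb1 could be tested in 20 classes (13 positive), Crtc3 in 14 (9 positive), Crtc1 in 12 (6 positive) and Atf1 in 2 (none positive), and Crem, Crtc2 and Sik1 in none.

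Of the CREB target genes, 12 could be tested in excitatory nuclei and edgeR called 0 of them, against 0.0376% of 5320 genes, while 4 had an unadjusted p below 0.05, as 9.57% of all genes did. Their median log2 fold change was 0.07, and 4 of 12 were negative. Homer1 and Vgf, called in opposite directions in bulk, gave 0.40 ± 0.12 (FDR 0.505, edgeR) and 0.61 ± 0.12 (FDR 0.266, edgeR). Without CUS mouse 2, 4 of the 12 were called higher and 0 lower, against 14.0% of 5439 genes called. They were Vgf (0.68 ± 0.11, FDR 0.0517, edgeR), Homer1 (0.45 ± 0.12, FDR 0.110, edgeR) and the early response genes Nr4a1 (0.60 ± 0.17, FDR 0.123, edgeR) and Egr1 (0.68 ± 0.23, FDR 0.146, edgeR). With all mice Nr4a1 was at 0.62 ± 0.16 and Egr1 at 0.67 ± 0.22, so the log2 fold changes of these 4 genes were of similar size in both fits while their FDR values differed. Fos, Nr4a2, Nr4a3, Dusp1 and Cyr61 were below the filter in these nuclei.

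Levels between cell classes were not used in choosing the genes, and none of the 9 was among the 2000 genes used for clustering. UMIs were summed per mouse in 6 broad classes, and each class was compared with excitatory neurons over the 8 mice, with the mouse as a block. The low-count filter left 4926 genes and 4 of the 9 (Creb1, Crtc3, Sik2 and Sik3), because the smallest classes hold few UMIs. It could keep a gene through the classes where that gene was high. Crtc1, at a similar level to Crtc3 in excitatory neurons but lower in inhibitory neurons, did not pass. Nuclei numbered 17253 excitatory, 2853 inhibitory, 1185 astrocyte, 667 mature oligodendrocyte, 435 oligodendrocyte precursor (OPC) and 235 microglia, and median UMIs per nucleus were 2288, 1874, 1215, 1191, 1087 and 1631. In every class the summed markers of that class were the highest, but markers of other classes were present. Microglia nuclei held 3583 CPM of their own markers beside 2599 CPM of mature oligodendrocyte and 1504 CPM of excitatory markers, the latter against 2107 CPM in excitatory nuclei. OPC nuclei held 6426 CPM of their own beside 1965 CPM of inhibitory and 1487 CPM of astrocyte markers. Mature oligodendrocyte nuclei held 32610 CPM of their own beside 1669 CPM of inhibitory markers, and astrocyte nuclei 15047 CPM beside 754 CPM. Inhibitory nuclei held 6663 CPM of their own beside 486 CPM of excitatory markers. The part of these in the values of the 9 genes was not tested.

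Sik3 had the widest range over cell classes. It measured 437 ± 132 CPM (SD, n = 8 mice) in mature oligodendrocytes, 294 ± 60.6 in astrocytes, 180 ± 57.4 in OPC, 166 ± 77.5 in microglia, 136 ± 22.6 in inhibitory neurons and 106 ± 10.9 in excitatory neurons. The lowest of the 8 mice in mature oligodendrocytes, at 253 CPM, lay above the highest excitatory value of 120 CPM, and so did the lowest astrocyte value of 200 CPM. Log2 differences from excitatory neurons were 2.17 ± 0.11 in mature oligodendrocytes (FDR 1.68e-33, edgeR), 1.56 ± 0.10 in astrocytes (FDR 4.25e-26, edgeR), 0.65 ± 0.18 in OPC (FDR 0.00179, edgeR), 0.62 ± 0.18 in microglia (FDR 0.00522, edgeR) and 0.25 ± 0.08 in inhibitory neurons (FDR 0.00400, edgeR). Without the low-count filter the first 2 were 1.83 and 1.21 and stayed called, while the others dropped to 0.12 to 0.27 and were not called. That setting scaled the libraries differently and moved the median over all genes to between -0.25 and -0.60, from between -0.02 and 0.02.

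Sik2 varied less. Its level was 130 ± 60.5 CPM in mature oligodendrocytes, 121 ± 36.3 in OPC, 106 ± 17.1 in inhibitory neurons, 103 ± 41.6 in microglia, 85.8 ± 10.9 in excitatory neurons and 71.7 ± 17.4 in astrocytes. In each pair of neighbours in this order the ranges over the 8 mice overlapped. Mature oligodendrocytes exceeded excitatory neurons by 0.77 ± 0.16 on the log2 scale (FDR 1.79e-05, edgeR) and inhibitory neurons by 0.18 ± 0.08 (FDR 0.0450, edgeR), and the latter was 0.06 and not called without the filter. The difference in astrocytes was -0.16 ± 0.15 (FDR 0.341, edgeR), and -0.50 ± 0.16 (FDR 0.00878, edgeR) without the filter, where the median over all genes was -0.43. Among finer classes, Sik2 was at 134 ± 29.8 CPM in striatal-like nuclei and 73.4 ± 17.3 CPM in Ex_L2/3-like nuclei.

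Crtc3 was led by astrocytes at 113 ± 37.0 CPM, followed by inhibitory neurons at 75.5 ± 17.6, OPC at 57.6 ± 43.9, mature oligodendrocytes at 50.8 ± 29.4, and excitatory neurons at 43.0 ± 4.09, while microglia ranged from 0 to 65.2 CPM. Astrocytes and inhibitory neurons did not overlap excitatory neurons, since their lowest values were 67.6 and 54.8 CPM and the highest excitatory value was 48.7 CPM. Log2 differences were 1.48 ± 0.15 (FDR 1.23e-14, edgeR) and 0.73 ± 0.10 (FDR 1.60e-09, edgeR), and both stayed called without the filter, at 1.13 and 0.60. OPC, mature oligodendrocytes and microglia were not called. Within excitatory classes Crtc3 was lowest in Ex_L2/3-like nuclei, at 27.9 ± 5.8 CPM, against 54.4 ± 9.0 CPM in Ex_L5-like nuclei.

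Creb1 lay between 52.6 ± 15.2 CPM (astrocytes) and 91.8 ± 53.2 CPM (microglia) in the broad classes, with 59.7 ± 4.83 in excitatory and 59.4 ± 12.4 in inhibitory neurons. edgeR called it higher in mature oligodendrocytes (0.50 ± 0.20, FDR 0.0228) and in microglia (0.68 ± 0.24, FDR 0.0224), and neither call remained without the filter. Over the contrasts, the 4 tested genes gave 3 calls of 4 in inhibitory neurons (63.8% of all genes called, 32.5% higher), 3 in mature oligodendrocytes (62.9%, 30.9% higher), 2 in astrocytes (71.1%, 35.3% higher), 2 in microglia (31.0%, 16.1% higher) and 1 in OPC (51.1%, 24.8% higher). All 11 were higher than in excitatory neurons, a direction that the filter could favour, so nothing is read from it. Without CUS mouse 2 there were 9, where 54.5% of all tests over the 5 contrasts were called against 56.0% with all mice, and those lost were Sik2 in inhibitory neurons (0.12, FDR 0.224, edgeR) and Creb1 in mature oligodendrocytes (0.40, FDR 0.0853, edgeR). Without the low-count filter all 9 genes were tested, and edgeR called 4 in astrocytes (24.4% of all genes), 4 in inhibitory neurons (21.6%), 3 in mature oligodendrocytes (17.6%), 2 in OPC (14.0%) and 0 in microglia (8.64%), where 0 of the 9 had an unadjusted p below 0.05.

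Crtc1 ran the other way, with 45.3 ± 4.33 CPM in excitatory neurons, 30.7 ± 30.1 in OPC, 27.0 ± 14.4 in astrocytes, 24.0 ± 11.7 in mature oligodendrocytes and 21.5 ± 8.88 in inhibitory neurons, and 58.3 ± 25.6 in microglia. The highest inhibitory value, 37.3 CPM, lay below the lowest excitatory value, 39.1 CPM. It could be fitted only without the low-count filter. There the log2 differences were -1.28 ± 0.14 in inhibitory neurons (FDR 1.01e-18, edgeR), -0.98 ± 0.23 in astrocytes (FDR 0.000125, edgeR), -1.15 ± 0.30 in mature oligodendrocytes (FDR 0.00131, edgeR) and -1.06 ± 0.36 in OPC (FDR 0.0269, edgeR), beside medians of all genes of -0.25, -0.43, -0.54 and -0.60. Among neurons, 4 inhibitory classes had 18.8 to 25.2 CPM, and Ex_L2/3-like nuclei had 51.6 ± 6.4 CPM.

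Atf1, Crem, Crtc2 and Sik1 had few UMIs in the small classes. Atf1 was at 25.8 ± 3.39 CPM in excitatory and 20.3 ± 4.96 in inhibitory neurons, a log2 difference of -0.59 ± 0.15 without the filter (FDR 0.000715, edgeR). Medians of all genes in fits without the filter are those given above for Crtc1, negative in inhibitory neurons and in OPC. Crem was between 14.8 and 30.1 CPM in excitatory neurons, 24.2 ± 4.54 in inhibitory neurons, 34.2 ± 10.3 in astrocytes, 33.2 ± 19.8 in mature oligodendrocytes, 42.1 ± 44.3 in microglia (15 UMIs) and 10.8 ± 9.3 in OPC, and the OPC difference of -1.50 ± 0.53 (FDR 0.0357, edgeR, no filter) rests on 6 UMIs. Crtc2 lay between 7.93 and 19.2 CPM over the classes, with SDs up to 13.9 CPM. Sik1 was at 3.91 ± 2.08 CPM in excitatory and 7.25 ± 4.85 in inhibitory neurons (0.74 ± 0.25, FDR 0.0150, edgeR, no filter), and its highest finer class was Inh_Vip-like nuclei with 19.4 ± 12.2 CPM from 19 UMIs. OPC had 0 Sik1 UMIs of 522523, which allows up to 5.74 CPM, above the excitatory level, so absence cannot be stated.

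**Figure D5:**
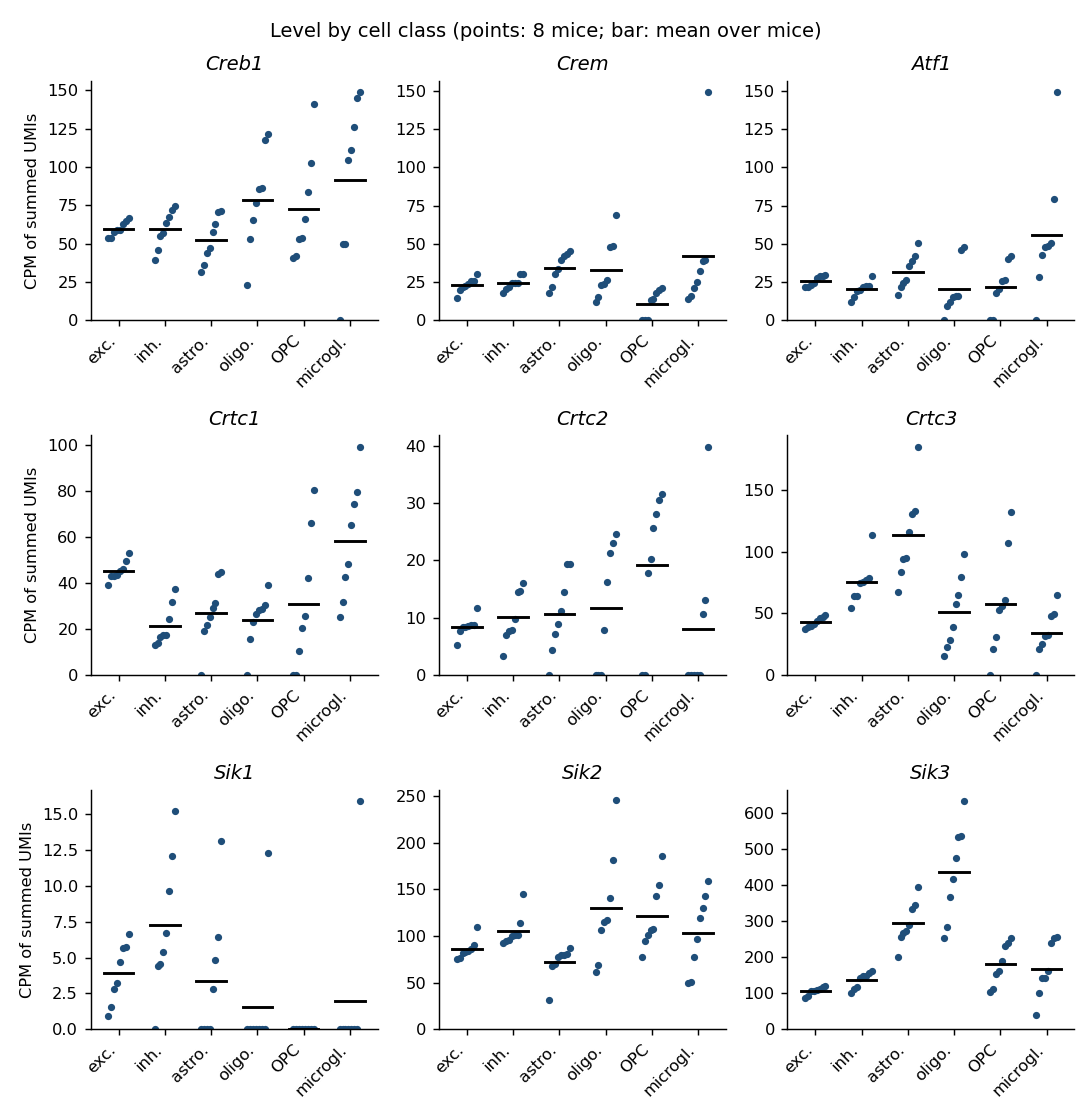
Level of each gene in 6 broad classes of nuclei, in CPM of summed UMIs on the vertical axis, with 1 point per mouse (8 mice, control and CUS together) and a bar at the mean. Sik3 is highest in mature oligodendrocytes (437 CPM) and astrocytes (294 CPM), Crtc3 in astrocytes (113 CPM), and Crtc1 is lower in inhibitory (21.5 CPM) than in excitatory neurons (45.3 CPM).

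The genes whose mean log2 CPM followed each member most closely over the 25 classes are given as a description, since the classes share libraries and depth. They were Iws1 (r = 0.85) and Upf2 (0.84) for Creb1, Vti1a (0.77) and Fbxl17 (0.74) for Atf1, Mkl2 (0.81) and Map9 (0.80) for Crtc1, Enah (0.76) and Tnrc6a (0.75) for Crtc3, Zmym4 (0.74) and Thoc2 (0.72) for Sik2, and Dhx36 (0.80) and Mbnl1 (0.79) for Sik3. For the scarce genes they were Atp5d (0.63) and Ube2d3 (0.60) for Crem, Kpna4 (0.79) and Kpna3 (0.77) for Crtc2, and Snrpn (0.64) and Rc3h2 (0.60) for Sik1. Candidates were genes tested in every class, and among the 9 themselves the highest r was 0.63, for Creb1 and Sik3.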

How the data were processed

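Raw read counts per gene were deposited by the authors for bulk nuclear RNA, and UMI counts per gene and barcode for nuclei. The submitters' processing notes name STAR, Seurat, edgeR and the mm10 build. For the bulk counts, the annotation release and whether counting used strand are not given in the sources used here. For nuclei, the methods state exonic and intronic reads on the gene's strand. Counts were taken as deposited.

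Bulk counts were fitted with edgeR 4.0.16 (TMM, filterByExpr, quasi-likelihood test, R 4.3.3), CUS against control, with Benjamini-Hochberg FDR over all genes tested and a threshold of 0.05. SE is the log2 fold change divided by the root of F. Nuclei with 600 to 5000 genes and under 5% mitochondrial UMIs were kept. Nuclei over a doublet score of 0.2 (scanpy 1.11.5), 15.1% of those scored, and 5 barcodes of a single repeated base were removed. Nuclei were clustered with Seurat 5.3.0, and clusters were named from markers as X-like. A first form of the naming rule was revised after the clusters were seen, without regard to condition or to the 9 genes, so 2 forms were looked at. UMIs were summed per mouse and class and tested with edgeR, with genes over 10% of a class's nuclei in UMIs, FDR 0.2 and classes over 200 nuclei. These thresholds follow the wording of the study's methods. The low-count filter kept 2623 to 6118 genes per class here, far fewer than the study reports per cluster, and the reason was not tested. The test does not follow the study, which fitted a likelihood ratio test with batch as a term. Here the quasi-likelihood test had no batch term because the labels do not map mice to batches. Broad classes were compared with the mouse as a block at FDR 0.05. Bulk CPM is TMM scaled, and nuclei CPM is UMIs per 1000000 of the summed class.

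The members and the gene lists were chosen with earlier results of these data known. Text names the 9 genes, called pathway genes up to 5 per list with the smallest p, the largest fold change of each list, and the 2 genes most like each member. DESeq2 1.42.0, edgeR's likelihood ratio test, no TMM, no low-count filter, a replicate block, other clusterings, at least 1000 genes per nucleus and leaving out each mouse were tried. The tests were also run on data simulated from the means and dispersions of these data, and the outcome is not given here. Replicates differed by more than sampling noise, with chi-square statistics per df of 3.04 to 26.9 in bulk and 2.91 to 15.9 in nuclei. Each library is 1 mouse by the study's methods, so p-values of CUS against control measure the spread between mice, and in nuclei between batches. Between cell classes the mouse was a block. Those p-values measure the variation left after each mouse's own level is removed, pooled over the classes, and not the spread between mice. The upper limit given for a count of 0 covers counting error only.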

Additional observations from a re-analysis of the deposited data

Results flagged for a closer look

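In 54 groups of 4 or 5 mice, 6 had a mouse far from the others by Dixon's criterion, which chance passes in about 1 of 20 groups. In bulk control mice, the lowest value lay apart for Atf1 (20.6 CPM, next 24.8), Sik1 (9.82 CPM, next 12.1) and Sik2 (137 CPM, next 171). The first was control mouse 4, and the others were control mouse 1. For Crtc2 over all nuclei, the lowest control mouse was at 5.03 CPM (next 9.06) and the highest CUS mouse at 11.7 CPM (next 8.89). In excitatory nuclei the highest CUS mouse was at 11.7 CPM for Crtc2 (next 8.77). The high Crtc2 values were those of the library with replicate number 2, which also had the largest effect on calls when left out.

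Some genes had every bulk CUS mouse below the bulk control mean and every nuclei CUS mouse above the nuclei control mean. The share of all genes that do so was not counted, so nothing is read from their number, and the difference between bulk and nuclei was not tested. The genes were Sik2 (log2 fold change in nuclei 0.13 over all and 0.19 in excitatory nuclei, against -0.43 in bulk), Crem (0.11 and 0.17, without the low-count filter, against -0.33) and Creb1 (0.068 in excitatory nuclei, against -0.10). No nuclei value was called.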

How the results depend on the processing

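Sik1 and Crem were called in bulk under all 14 alternatives, with log2 fold changes of -0.68 to -0.56 and -0.36 to -0.31. Sik2 kept its direction and was called under 10 of 14. With 1 mouse left out, 2 to 4 of the 9 genes were called, while the share of all genes called moved from 3.29% to between 0.714% (without control mouse 2) and 8.10% (without control mouse 3). The count of 12 called pathway genes mostly rose and fell with that share, but not throughout. It was 10 with the replicate block (1.29% of all genes) and 8 without CUS mouse 3 (1.73%). It was 22 by the likelihood ratio test (7.23% of all genes), 24 by DESeq2 (7.68%) and 5 to 33 with 1 mouse left out (5 without control mouse 2, 33 without control mouse 3, and 6 each without CUS mouse 1, 4 or 5, where 1.93%, 0.811% and 0.768% of all genes were called). The cause was not tested. In nuclei, none of the 9 genes was called for CUS under any alternative run. The 0 calls among CREB target genes in excitatory nuclei became 4 without CUS mouse 2, an alternative chosen after seeing the data. The 11 calls of 20 tests between cell classes (56.0% of all tests called) became 4 of 5 with at least 1000 genes per nucleus (55.1%), and 7 to 10 of 20 with 1 mouse left out (7 without control mouse 2, where 52.8% of all tests were called).

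Directions changed for values that were not called. With 1 mouse left out, Sik3 in excitatory nuclei ranged from -0.11 to 0.040 (0.039 without CUS mouse 1), and Creb1 in OPC from -0.063 (without control mouse 4) to 0.27. Creb1 in astrocytes was 0.029 by DESeq2. Without the low-count filter, Sik2 was -0.080 in microglia and -0.0089 in OPC, and Creb1 was -0.27 and Crtc3 -0.19 in OPC.

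Between mice of the same replicate number, correlations of deviations were 0.02 to 0.15 in bulk and -0.45 to 0.40 in nuclei. These were small in bulk and of mixed sign in nuclei, so whether the numbers pair the nuclei mice is not settled. With the replicate number as a block, 2 of the 9 genes (Sik2 at an FDR of 0.0577 in edgeR) and 10 pathway genes were called in bulk, where 1.29% of all genes were called, and 0 members in nuclei. Without the mouse block, there were 9 calls between classes (51.1% of all tests). Crem, Crtc2, Atf1 and Sik1 had 322 to 1677 UMIs in nuclei, below the low-count filter, and how much of their error comes from depth or from the spread between mice was not tested.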
